A study of Mus musculus with 16 samples.

Results

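Collagens and the enzymes that process them were followed through RNA of the mouse mammary gland. The set was a list of 39 named genes, made up of 27 collagen chains, 3 prolyl hydroxylases, 3 lysyl hydroxylases, the collagen chaperone Serpinh1 and 5 lysyl oxidases. Of these, 38 were measured among 18194 genes on the array; Loxl2 had no probe set with a single gene symbol and was not analysed here. All glands came from FVB/N females. They were homozygous for a transgene in which the C3(1) fragment of the rat prostatic steroid binding protein promoter drives SV40 large T antigen, and which gives mammary tumours. The groups were grouped mice at 15 weeks, isolated mice at 15 weeks, grouped mice at 20 weeks and isolated mice at 20 weeks of age, with 4 arrays each. Isolated mice were housed singly after weaning and grouped mice with other females, and all were killed in estrus and at 1 time of the dark phase. No group lacked the transgene, so every comparison is between glands that carry it. RNA was taken from the whole gland, so a lower level can come from fewer cells of a type or from less RNA per cell, which cannot be told apart.

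Collagens are triple helices of 3 chains. Fibrillar collagens (types I, III, V and XI) bundle into the load-bearing fibrils of stroma, type IV collagens form the sheet-like basement membrane under epithelium, vessels and fat cells, and other types coat fibrils, anchor membranes or build small networks. Inside the cell, prolyl hydroxylases stabilise the helix, lysyl hydroxylases prepare lysines for cross-linking and Serpinh1 (HSP47) escorts the folded helix; outside it, lysyl oxidases start the covalent cross-links that stiffen fibrils. Fibroblasts make most fibrillar collagen of the mammary gland, and dense collagen around ducts is a known feature of mammary tumour stroma.

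Stretches upstream of the start site are shown for 3 fibrillar chains and for P4ha1 and P4ha2, as examples in which the marked letters occur. All 5 genes had higher mean levels in isolated mice at 20 weeks, as did 32 of the 38 measured members. A link between the letters and the housing difference was not tested. They come from RefSeq (assembly GRCm38.p6), run 5′ to 3′ on the strand of the gene and are trimmed where they meet a gene model. In the fibrillar chains Col1a2 (chr6:4505368-4505617, plus strand), Col5a3 (chr9:20815118-20815317, minus strand) and Col11a1 (chr3:114030290-114030478, plus strand), capitals mark the CCAAT box on either strand:
Col1a2: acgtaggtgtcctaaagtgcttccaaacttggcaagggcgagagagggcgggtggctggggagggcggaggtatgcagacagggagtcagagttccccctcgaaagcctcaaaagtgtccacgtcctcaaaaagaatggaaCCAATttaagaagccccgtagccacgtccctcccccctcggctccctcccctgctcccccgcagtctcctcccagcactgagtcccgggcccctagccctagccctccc
Col5a3: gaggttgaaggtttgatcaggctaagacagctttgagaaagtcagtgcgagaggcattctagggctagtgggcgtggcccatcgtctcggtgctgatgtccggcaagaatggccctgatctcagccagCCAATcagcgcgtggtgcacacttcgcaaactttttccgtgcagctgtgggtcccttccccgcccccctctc
Col11a1: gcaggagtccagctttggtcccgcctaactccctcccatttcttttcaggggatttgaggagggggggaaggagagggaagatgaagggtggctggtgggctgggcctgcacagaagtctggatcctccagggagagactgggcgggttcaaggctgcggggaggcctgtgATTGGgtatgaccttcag
In P4ha1 (chr10:59323046-59323196, plus strand) and P4ha2 (chr11:54100674-54100923, plus strand), capitals mark ACGTG or GCGTG on either strand, the core letters bound by hypoxia-inducible factors:
P4ha1: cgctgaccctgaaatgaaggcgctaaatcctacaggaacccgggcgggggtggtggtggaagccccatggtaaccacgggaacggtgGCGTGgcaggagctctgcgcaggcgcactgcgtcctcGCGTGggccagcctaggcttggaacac
P4ha2: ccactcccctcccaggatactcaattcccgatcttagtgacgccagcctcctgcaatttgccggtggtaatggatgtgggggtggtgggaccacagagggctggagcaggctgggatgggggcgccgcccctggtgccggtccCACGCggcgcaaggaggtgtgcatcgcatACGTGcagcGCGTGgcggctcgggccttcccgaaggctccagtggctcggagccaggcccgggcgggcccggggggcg
A promoter window was found for 29 members. The CCAAT box lay in 11 of them, against 37.5% of all genes with a window, and ACGTG or GCGTG lay in 15 of them, against 41.5% of all genes. On either strand, GGGCGG, the GC box, lay in 19 members, against 35.4% of all genes, and TATAAA in 5, against 14.3%. These matches describe letters in the 250 bases before the start site and do not show binding.

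Array medians were 8.09 to 8.11 (log2) at 15 weeks and 8.31 to 8.34 at 20 weeks, and the 2 ages followed different distributions. Age and array run cannot be told apart. Housing was therefore compared within an age on the deposited values, and ages were compared after all 16 arrays were put on a common distribution. Luminal epithelial markers of the mammary gland were present, with array means of 11.41 to 12.06 over 7 genes. P4ha3 lay below the lower quartile on all 16 arrays, and its signal may be background. A member passed when its limma p, adjusted by Benjamini-Hochberg across the 18194 genes, was under 0.05, and all differences are on the log2 scale. The labels leave unsaid what the replicate numbers stand for and whether every array stands for its own mouse. A p-value here therefore speaks of array-to-array spread, which may be technical.

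The first comparison asked how the set differed between isolated and grouped mice at 20 weeks. None of the 38 members passed the limma test, where 2 of all genes passed (0.011%), both lower. Of the 38 members, 32 had a positive difference (isolated minus grouped), against 46.7% of all genes, and the median difference was 0.29 against -0.01 over all genes. An unadjusted p under 0.05 with a higher level in isolated mice was found for 16 members, against 3.97% of all genes, and with a lower level for 0 members, against 4.52%. In 9 members every isolated array lay above every grouped array, against 2.21% of all genes: Col5a3, Col12a1, P4ha1, P4ha2, Plod2, Plod3, Lox, Loxl3 and Loxl4. The margin was very narrow for P4ha1 (lowest isolated array 9.1363, highest grouped array 9.1354) and Plod3 (11.3519 and 11.3506). It was narrow for P4ha2 too (10.1954 and 10.168). All measured members were positive in the fibrillar, beaded filament, short-chain and fibril-associated classes, among the 3 groups of processing enzymes and for the chaperone. The smallest of these differences was 0.01, for the fibril-associated chain Col16a1. Of the basement membrane chains 3 of 6 were positive, and of the transmembrane chains 0 of 2 (median -0.03). Differences between classes were not tested.

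All 7 fibrillar chains had positive differences at 20 weeks (median 0.62), and 5 of them had an unadjusted p under 0.05. Col5a3, a minor chain of type V collagen, came closest to the threshold. Its levels were 9.68, 9.82, 10.06 and 9.92 in grouped and 10.48, 10.45, 10.40 and 10.62 in isolated mice. The lowest isolated array was above the highest grouped array, so the groups did not overlap. The difference was 0.62 (1.53-fold, SE 0.09, limma adjusted p = 0.144), and it passed without isolated replicate 4 (0.57, adjusted p = 0.0375). In the other 7 fits that left out 1 array it did not pass (adjusted p up to 0.546). Only 1 of the 2 Col5a3 probe sets carried it, as the other, near the lower quartile of the arrays, differed by 0.05.

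Col1a1, which encodes the main chain of type I collagen, lay at 11.44, 11.18, 12.17 and 10.83 in grouped and 11.76, 12.39, 12.07 and 12.46 in isolated mice at 20 weeks. Grouped replicate 3 lay among the isolated arrays and grouped replicate 4 was the lowest, so the groups overlapped. The difference was 0.76 (SE 0.27, adjusted p = 0.567), and it was 1.02 without grouped replicate 3. The partner chain Col1a2 differed by 0.37 (SE 0.19, adjusted p = 0.613). Col3a1, of the fine type III fibrils, differed by 0.23 (SE 0.24, adjusted p = 0.789), where its second, dimmer probe set gave 0.89. Col11a1, a chain of the type XI core of cartilage fibrils, had levels of 8.82, 8.04, 8.27 and 8.03 in grouped and 10.55, 9.48, 8.27 and 9.04 in isolated mice. Isolated replicate 1 was far above the rest and isolated replicate 3 lay within the grouped range. Its difference of 1.04 had an SE of 0.42, and its second, dimmer probe set gave 1.70.

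The fibril-coating and short-chain collagens had positive differences at 20 weeks as well, in 3 of 3 and 3 of 3 chains. Among them the fibril-associated chain Col16a1 differed by only 0.01 and the short-chain Col10a1 by 0.15. Col12a1, a fibril-associated chain of dense stroma, lay at 10.83, 10.72, 10.74 and 10.33 in grouped and 11.57, 11.17, 11.16 and 11.34 in isolated mice, without overlap. The difference was 0.66 (1.58-fold, SE 0.13, adjusted p = 0.38). A second bright Col12a1 probe set gave 0.58, and its 2 dimmest gave -0.0027 and 0.0136. Col8a1, of the hexagonal type VIII network found around vessels and in remodelled matrix, differed by 0.60 (SE 0.19, adjusted p = 0.534), and its 2 other probe sets by 0.57 and 0.78. Among the type VI beaded filament chains, which sit between fibrils and cells, Col6a1 differed by 0.47 (SE 0.19, adjusted p = 0.577), and Col6a2 and Col6a3 by 0.31 and 0.43.

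The type IV chains showed no such direction at 20 weeks, with 3 of 6 positive and a median of 0.00. Col4a1, the common chain of basement membranes, lay at 11.75, 11.80, 12.13 and 11.64 in grouped and 11.46, 11.79, 11.74 and 12.17 in isolated mice. Arrays of both groups were mixed over the same range. The difference was -0.04 with a 95% interval from -0.39 to 0.31 (adjusted p = 0.949), and it was positive (0.09) on the second Col4a1 probe set. Col4a4, with the smallest p of the type IV chains, differed by 0.13 (SE 0.08, adjusted p = 0.664). Col18a1, whose end fragment is endostatin, differed by 0.26 (SE 0.12, adjusted p = 0.592), the anchoring fibril chain Col7a1 by 0.05 (SE 0.09, adjusted p = 0.884) and the hemidesmosome chain Col17a1 by -0.05 (SE 0.08, adjusted p = 0.869).

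All 11 processing genes, the chaperone among them, had positive differences at 20 weeks (median 0.32), and 8 had an unadjusted p under 0.05. Lox, the founding lysyl oxidase, had levels of 10.12, 10.32, 10.38 and 9.47 in grouped and 10.74, 11.46, 11.19 and 10.90 in isolated mice. Every isolated array lay above every grouped array, and grouped replicate 4 was the lowest. The difference was 1.00 (SE 0.22, adjusted p = 0.422). A second Lox probe set of like brightness gave 1.04 and a dim one 0.33. Loxl3 differed by 0.47 and Loxl4 by 0.27 without overlap of the groups, and Loxl1 by 0.76 with overlap.

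Among the enzymes that act in the endoplasmic reticulum, Plod2, which hydroxylates the lysines at the ends of collagen chains, lay at 10.13, 9.88, 10.00 and 9.90 in grouped and 10.26, 10.64, 10.41 and 10.24 in isolated mice at 20 weeks. The groups did not overlap, and the difference was 0.41 (SE 0.10, adjusted p = 0.452), with 0.39 on its second probe set. The prolyl hydroxylase subunit P4ha2 lay at 10.02, 10.17, 10.13 and 10.05 in grouped and 10.53, 10.53, 10.39 and 10.20 in isolated mice, again without overlap. Its difference was 0.32 (SE 0.08, adjusted p = 0.465), and it passed without isolated replicate 4 (0.39, adjusted p = 0.0483). In the other 7 fits that left out 1 array it did not pass (adjusted p up to 0.883). P4ha1 differed by 0.21 (SE 0.07, adjusted p = 0.567). Serpinh1, the chaperone, differed by 0.27 (SE 0.14, adjusted p = 0.627), with overlapping groups.

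**Figure D1:**
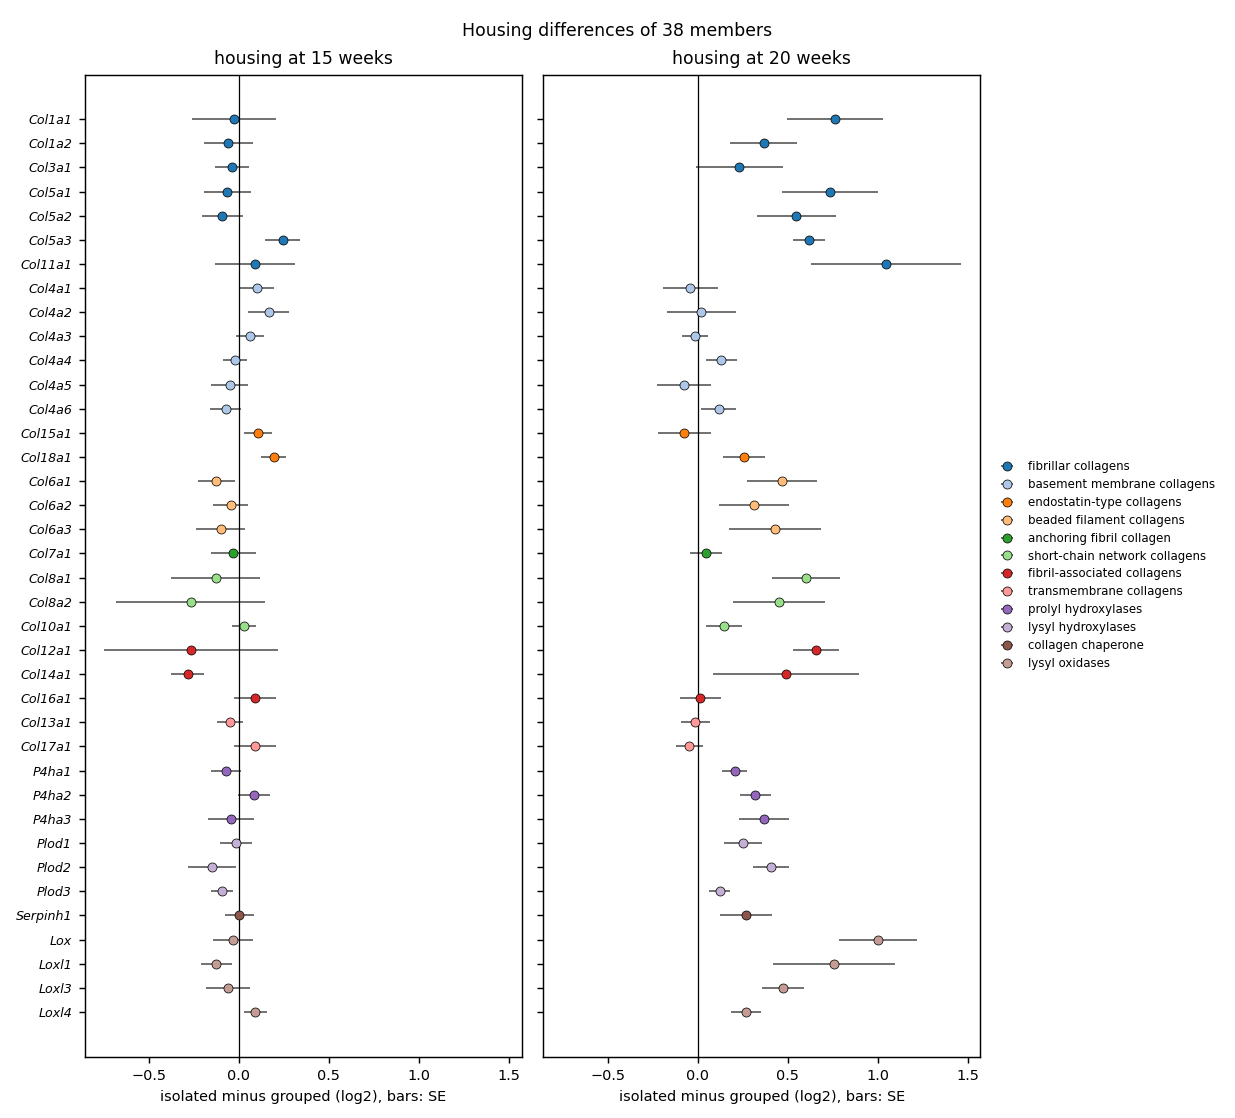
Difference between isolated and grouped mice (x axis, log2, isolated minus grouped) for each of the 38 measured members (rows, coloured by class) at 15 weeks (left) and 20 weeks (right). Points are differences of 4 against 4 arrays and bars are standard errors; most fibrillar, fibril-associated and lysyl oxidase points lie right of 0 at 20 weeks, whereas the type IV points stay near 0 at both ages.

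Single arrays had a large part in these counts. Grouped replicate 3 lay highest of the grouped arrays at 20 weeks in the mean of the fibrillar class (0.15 above the mean of the 8 arrays), and grouped replicate 4 lowest (-0.72). The 4 isolated arrays lay at 0.20, 0.36, 0.18 and 0.49. Without grouped replicate 3, 20 members were higher in every isolated array, while the count was 9 to 11 when any other array was left out. The count at an unadjusted p under 0.05 was 9 without grouped replicate 4, 10 without isolated replicate 2 or isolated replicate 4 and 21 without grouped replicate 3. Shares of all genes were counted only in the main fits. Whether all genes moved alike when an array was left out is therefore not known, here and for the later counts of this kind. With fewer arrays, full separation of the groups is also easier to reach.

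**Figure D2:**
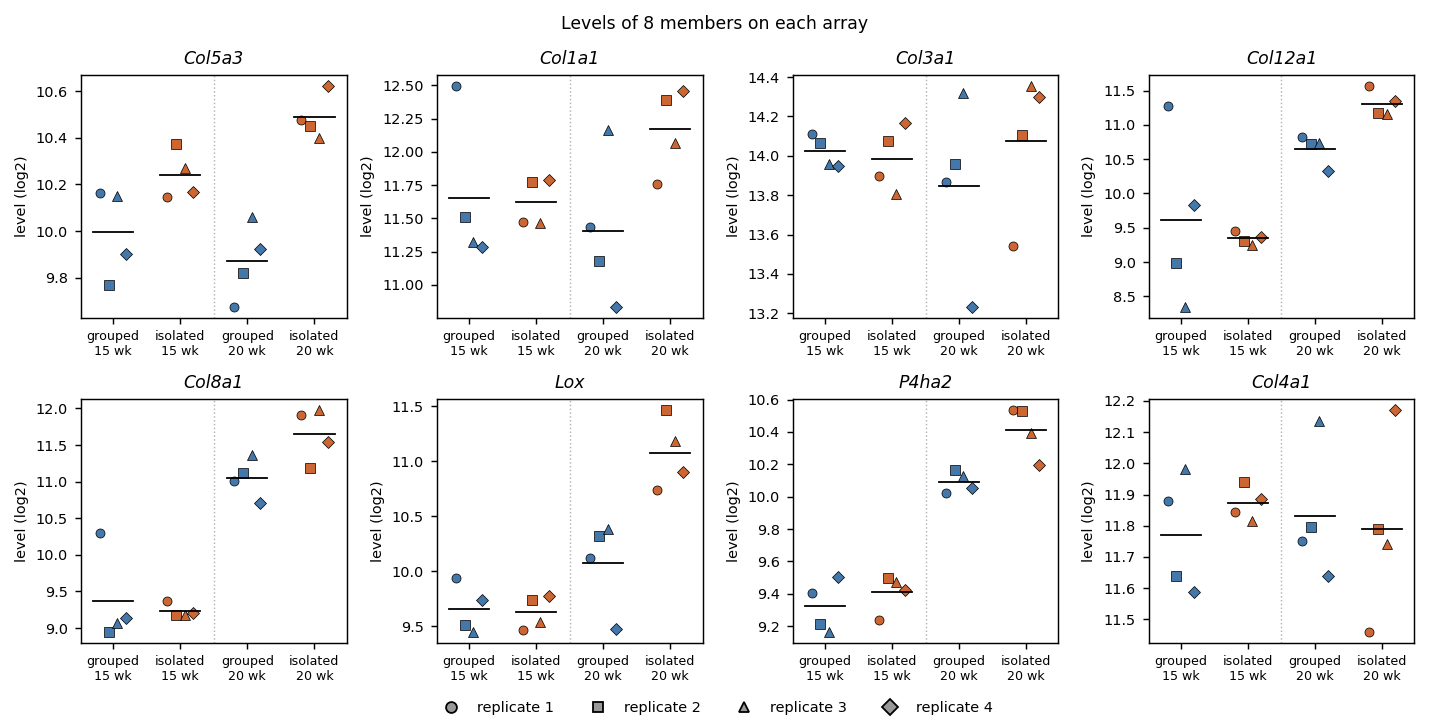
Log2 level of 8 members (1 panel each, deposited values) on each of the 16 arrays, by group on the x axis; symbols give the replicate and horizontal lines the mean of 4 arrays. The isolated arrays at 20 weeks lie above the grouped ones for Col5a3, Col12a1, Lox and P4ha2 and overlap them for Col1a1, Col3a1, Col8a1 and Col4a1; levels on either side of the dotted line come from different distributions and are not compared here.

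Some lists of cell type markers had a common direction between the housings at 20 weeks, and others did not. All 9 fibroblast markers had positive differences (median 0.27, 0 with an unadjusted p under 0.05). All 10 macrophage markers did too (median 0.59, 2 with such a p). All 8 white adipocyte markers had negative differences (median -0.74, 6 with such a p). So did all 8 skeletal muscle markers (median -0.58, 5 with such a p) and all 8 endothelial markers (median -0.31, 2 with such a p). All 7 luminal epithelial markers were negative as well (median -0.11, 0 with such a p). Of all genes, 3.97% were higher and 4.52% lower with such a p. The direction was mixed among smooth muscle and pericyte (3 of 7 positive), basal epithelial (2 of 6) and proliferation markers (3 of 5). It was mixed also among cartilage (3 of 6) and Schwann cell markers (1 of 2). The mean level of the fibroblast list ranged from 10.38 to 11.92 in grouped and from 10.35 to 11.81 in isolated arrays, that of the macrophage list from 10.45 to 11.87 and from 10.96 to 11.92, and that of the adipocyte list from 11.83 to 12.15 and from 10.74 to 11.93. Isolated replicate 1 lay at -0.81 from the mean of the 8 arrays in the fibroblast list, at 0.20 in the fibrillar class and at 0.49 in the short-chain class. Grouped replicate 3 lay at 0.76 in the fibroblast list and at 0.15 in the fibrillar class, the highest of the grouped arrays in both. The part of cell composition in the collagen differences was not tested. The 3' minus 5' signal of the Gapdh control probe sets, a measure of RNA quality, averaged -0.01 in grouped and -0.02 in isolated arrays at 20 weeks, and that of actin 0.22 and 0.26.

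**Figure D3:**
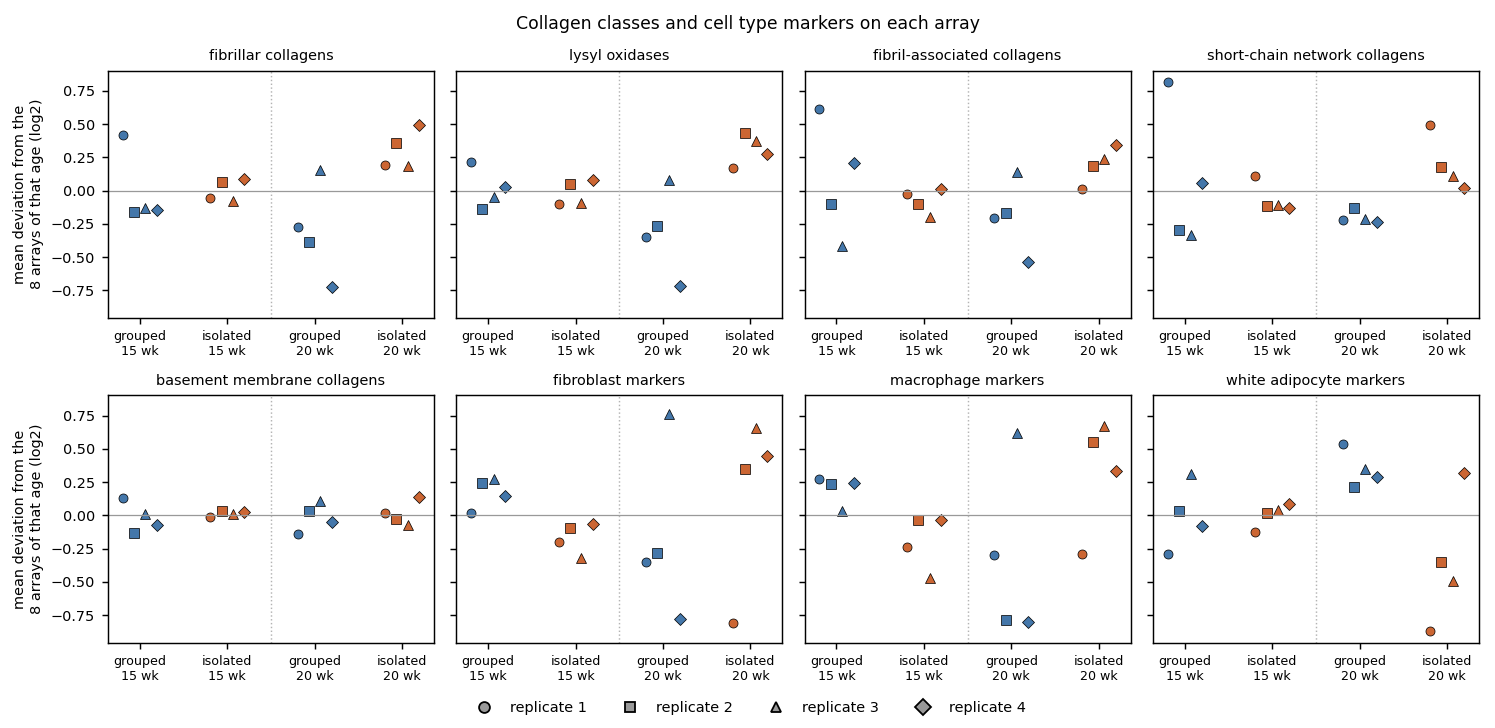
Mean deviation (y axis, log2) of 5 collagen classes and 3 cell type marker lists from the mean of the 8 arrays of the same age, for each array; symbols give the replicate. At 20 weeks the isolated arrays lie between 0.18 and 0.49 in the fibrillar class, where grouped replicate 3 lies at 0.15, whereas in the fibroblast list isolated replicate 1 lies at -0.81 and grouped replicate 3 at 0.76.

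The genes around the members in the collagen pathway were described from lists chosen by function. None of them passed for housing at 20 weeks. Of 8 fibril organisers, 8 had positive differences, with Thbs2, a matricellular protein that limits fibril width, at 0.83 (SE 0.17, adjusted p = 0.422) and the proteoglycan Bgn at 0.52 (SE 0.17, adjusted p = 0.551). Of 15 genes of collagen folding and export, 12 were positive, with Creb3l1, a transcription factor for collagen secretion, at 0.32 (SE 0.08, adjusted p = 0.465). Among 6 procollagen proteinases and enhancers, 4 were positive, with Bmp1, which removes the C-terminal propeptide, at 0.29 (SE 0.08, adjusted p = 0.495). Of 9 genes of TGF-beta signalling, 6 were positive, with Ccn2 at 0.29 (SE 0.08, adjusted p = 0.488). Of 8 collagen receptors, 5 were positive, with the uptake receptor Mrc2 at 0.41 (SE 0.14, adjusted p = 0.567). The receptors had a median of 0.02 and a lowest difference of -0.27. At an unadjusted p under 0.05, 2 receptors were higher and 1 was lower. A positive difference was found in 46.7% of all genes. Among 15 collagen chains outside the set, 5 were positive, with a median of -0.04.

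At 15 weeks the same comparison gave small differences. None of the 38 members passed the limma test, where 8 of all genes passed (0.044%). Of 38 differences, 13 were positive, against 46% of all genes. The median difference was -0.04 against -0.01 over all genes, and differences ran from -0.28 for Col14a1 to 0.24 for Col5a3. At an unadjusted p under 0.05, 2 members were higher, against 3.88% of all genes, and 1 was lower, against 5.82%. Col18a1 was the 1 member higher in every isolated array (2.31% of all genes), and Col14a1 and Plod3 were lower in every isolated array (3.38%).

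Col14a1, a fibril-associated chain, lay at 10.92, 11.10, 11.15 and 10.91 in grouped and 10.72, 10.83, 10.52 and 10.86 in isolated mice at 15 weeks. The groups did not overlap, but the highest isolated array was close to the lowest grouped array. The difference was -0.28 (SE 0.09, adjusted p = 0.393). Col18a1 differed by 0.19 (SE 0.07, adjusted p = 0.446), with 9.84 to 9.96 in grouped and 10.00 to 10.26 in isolated mice. Col5a3 differed by 0.24 (SE 0.10, adjusted p = 0.472) with overlapping groups. Col1a1 differed by -0.03 (SE 0.23) and Lox by -0.03 (SE 0.11), with 95% intervals from -0.55 to 0.49 and from -0.28 to 0.22, and both signs turned after quantile normalization of the 8 arrays (0.05 and 0.00). All 9 fibroblast markers had negative differences at this age (median -0.31, 7 with an unadjusted p under 0.05). So did all 10 macrophage markers (median -0.38, 9 with such a p). The Gapdh 3' minus 5' signal ranged from -0.09 to -0.034 in grouped and from -0.034 to 0.016 in isolated arrays at 15 weeks. The part of these markers in the differences was not tested; with the Gapdh signal as a covariate, Col3a1 differed by 0.04 and Col4a1 by -0.03, against -0.04 and 0.10 without it.

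The other members named at 15 weeks had small differences beside their errors. Among the chains, Col1a2 differed by -0.06 (SE 0.13, adjusted p = 0.891), Col3a1 by -0.04 (SE 0.09, adjusted p = 0.901), Col4a1 by 0.10 (SE 0.09, adjusted p = 0.71) and Col4a2 by 0.17 (SE 0.11, adjusted p = 0.619). Col6a1 differed by -0.13 (SE 0.10, adjusted p = 0.674), Col7a1 by -0.03 (SE 0.12, adjusted p = 0.94), Col8a2 by -0.27 (SE 0.42, adjusted p = 0.831) and Col17a1 by 0.09 (SE 0.12, adjusted p = 0.793). Among the enzymes, P4ha1 differed by -0.07 (SE 0.08, adjusted p = 0.777), P4ha2 by 0.09 (SE 0.09, adjusted p = 0.742), Plod2 by -0.15 (SE 0.13, adjusted p = 0.698), Plod3 by -0.09 (SE 0.06, adjusted p = 0.609) and Loxl4 by 0.09 (SE 0.06, adjusted p = 0.62). Serpinh1 differed by 0.00 (SE 0.08, adjusted p = 0.994).

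Grouped replicate 1 gave the highest grouped reading at 15 weeks in several members. By the gap criterion described at the end, that array stood apart for Col8a1 and Loxl3 only. Col12a1 read 11.27 on it and 8.98, 8.35 and 9.83 on the other grouped arrays, against 9.24 to 9.46 in isolated mice. Col8a2, the partner chain of Col8a1, read 9.35 on it and 7.22, 6.97 and 8.13 on the others. Col1a1 read 12.50 on it, against 11.28 to 11.51 on the others, and Loxl3 read 9.49, against 8.86 to 8.95. Its mean fibroblast marker level lay 0.02 above that of the 8 arrays, the lowest of the 4 grouped arrays. Without it, the difference of Col1a1 was 0.25 (adjusted p = 0.4), that of Col8a2 was 0.21 in place of -0.27, the median of the members was 0.06, 5 members had an unadjusted p under 0.05 with a higher level in isolated mice, and 0 passed.

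Over both ages together, none of the members passed the limma test, where 1 of all genes passed (0.0055%), but 36 of 38 had positive differences, against 43.1% of all genes. At an unadjusted p under 0.05, 7 members were higher in isolated mice, against 3.26% of all genes. That count was 16 without grouped replicate 3 of 20 weeks and 12 without grouped replicate 1 of 15 weeks. Col5a3 was again nearest to the threshold, with a mean difference of 0.43 (1.35-fold, SE 0.07, adjusted p = 0.0726) and the third smallest p of all genes. Its adjusted p fell to 0.0357 without grouped replicate 1 of 15 weeks, 0.0398 without grouped replicate 3 of 20 weeks and 0.0318 without isolated replicate 4 of 20 weeks, and was 0.197 at most when another array was left out. Next came Lox (0.48, SE 0.13, adjusted p = 0.455), Loxl4 (0.18, SE 0.05, adjusted p = 0.487), Col18a1 (0.22, SE 0.07, adjusted p = 0.579) and P4ha2 (0.20, SE 0.06, adjusted p = 0.579). Type I and III chains had wider errors, with Col1a1 at 0.37 (SE 0.19, adjusted p = 0.747), Col1a2 at 0.15 (SE 0.12, adjusted p = 0.79) and Col3a1 at 0.10 (SE 0.14, adjusted p = 0.883). Col4a1 was at 0.03 (SE 0.09, adjusted p = 0.953), Col4a4 at 0.06 (SE 0.05, adjusted p = 0.82), Col6a1 at 0.17 (SE 0.12, adjusted p = 0.768), Col7a1 at 0.01 (SE 0.08, adjusted p = 0.985) and Col13a1 at -0.03 (SE 0.06, adjusted p = 0.912). Col10a1 was at 0.09 (SE 0.06, adjusted p = 0.771) and Col12a1 at 0.20 (SE 0.28, adjusted p = 0.884). Of the processing genes, P4ha1 was at 0.07 (SE 0.06, adjusted p = 0.794), Plod1 at 0.12 (SE 0.07, adjusted p = 0.748), Plod2 at 0.13 (SE 0.09, adjusted p = 0.769) and Serpinh1 at 0.14 (SE 0.09, adjusted p = 0.752).

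Whether the housing difference itself changed between the ages was tested as an interaction. None of the members passed the limma test, where 2 of all genes passed (0.011%). Of 38 members, 31 had a larger difference at 20 than at 15 weeks, against 47.7% of all genes. At an unadjusted p under 0.05, 11 members did so, against 7.24% of all genes. That count was 18 without grouped replicate 3 of 20 weeks, 5 without grouped replicate 4 of 20 weeks and 6 without grouped replicate 1 of 15 weeks. Lox had the smallest p, with 1.03 (SE 0.26, adjusted p = 0.184) more at 20 weeks, followed by Plod2 (0.56, SE 0.18, adjusted p = 0.236) and Loxl3 (0.53, SE 0.18, adjusted p = 0.26). Among fibrillar chains the interaction was 0.37 for Col5a3 (SE 0.14, adjusted p = 0.291), 0.79 for Col1a1 (SE 0.39, adjusted p = 0.409), 0.43 for Col1a2 (SE 0.25, adjusted p = 0.487) and 0.27 for Col3a1 (SE 0.28, adjusted p = 0.734), none past the threshold. The estimate was 0.59 for Col6a1 (SE 0.23, adjusted p = 0.312), 0.73 for Col8a1 (SE 0.34, adjusted p = 0.392) and 0.77 for Col14a1 (SE 0.44, adjusted p = 0.483). It was -0.14 for Col4a1 (SE 0.19, adjusted p = 0.81), 0.15 for Col4a4 (SE 0.11, adjusted p = 0.578), -0.18 for Col15a1 (SE 0.18, adjusted p = 0.717), 0.08 for Col7a1 (SE 0.16, adjusted p = 0.89) and -0.14 for Col17a1 (SE 0.15, adjusted p = 0.749). P4ha1 stood at 0.28 (SE 0.11, adjusted p = 0.322) and Serpinh1 at 0.27 (SE 0.17, adjusted p = 0.54). The median over members was 0.27, and it was 0.42 without grouped replicate 3 of 20 weeks. A difference between the ages in the housing response of these genes was therefore not established at this number of arrays.

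Age was compared in isolated mice, where 22 of 38 members passed the limma test between 15 and 20 weeks, against 50.4% of all genes. Of the members, 17 were higher and 5 lower at 20 weeks. Of all genes, 24.7% were called higher and 25.7% lower. The deposited values of all genes had a median shift of 0.235 between the ages, and on them the split was 24 higher and 1 lower. The share of all genes called on the deposited values was not counted. Higher members included 2 of 3 short-chain, 2 of 3 fibril-associated, 3 of 6 basement membrane and 1 of 7 fibrillar chains and 3 of 4 lysyl oxidases.

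Col8a1 had the largest difference of the set in isolated mice. Its levels after joint normalization were 9.54, 9.32, 9.32 and 9.32 at 15 weeks and 11.85, 11.08, 11.91 and 11.35 at 20 weeks. Every array at 20 weeks lay far above those at 15 weeks. It rose by 2.17 (4.50-fold, SE 0.17, adjusted p = 3.47e-05), and its 2 other probe sets gave 1.20 and 1.71. Its partner Col8a2 rose by 1.82 (SE 0.23, adjusted p = 0.000294) and Col12a1 by 1.71 (SE 0.10, adjusted p = 1.09e-05). Col12a1 read 9.63, 9.44, 9.39 and 9.48 at 15 weeks and 11.49, 11.05, 11.08 and 11.14 at 20 weeks, with a narrow spread within each age. Col16a1, another fibril-associated chain, rose by 0.76 (SE 0.11, adjusted p = 0.000552).

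Of 11 processing genes, 7 rose in isolated mice, 1 fell and 3 did not pass. Lox read 9.63, 9.88, 9.69 and 9.89 at 15 weeks and 10.62, 11.37, 11.10 and 10.70 at 20 weeks, without overlap. It rose by 1.17 (SE 0.16, adjusted p = 0.000362), Loxl4 by 0.81 (SE 0.08, adjusted p = 9.14e-05) and Loxl3 by 0.51 (SE 0.07, adjusted p = 0.000515). Plod2 rose by 0.75 (SE 0.11, adjusted p = 0.000474), P4ha2 by 0.73 (SE 0.10, adjusted p = 0.000344), P4ha1 by 0.35 (SE 0.08, adjusted p = 0.00543) and Plod3 by 0.34 (SE 0.05, adjusted p = 0.00084). Loxl1 (0.12, SE 0.20, adjusted p = 0.629), Plod1 (-0.09, SE 0.06, adjusted p = 0.246) and the chaperone Serpinh1 (-0.09, SE 0.07, adjusted p = 0.312) did not pass. P4ha3 was called lower (-0.45, SE 0.15, adjusted p = 0.0281), at levels below the lower quartile of the arrays, and the call was lost without isolated replicate 2 or 4 of 15 weeks (adjusted p = 0.0767 and 0.0765) or isolated replicate 2 of 20 weeks (0.0513) and on the deposited values (-0.21, adjusted p = 0.226).

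Of 7 fibrillar chains, 6 had positive differences in isolated mice (median 0.19) and 1 passed. Col5a2 rose by 0.32 (SE 0.10, adjusted p = 0.0258), and this call was lost in 5 of the 8 fits that left out 1 array (isolated replicates 1 and 3 of 15 weeks and 2, 3 and 4 of 20 weeks, adjusted p up to 0.076), with cyclic loess (0.24, adjusted p = 0.0783) and with all 16 arrays in the fit (adjusted p = 0.146). Col1a1 differed by 0.31 (SE 0.14, adjusted p = 0.0914) and passed without isolated replicate 1 of 20 weeks (0.44, adjusted p = 0.00443) and on the deposited values (0.54, adjusted p = 0.011). Col1a2 differed by 0.19 (SE 0.09, adjusted p = 0.108) and passed without the same array (0.24, adjusted p = 0.0493), and its second probe set rose by 0.63 (adjusted p = 0.000773). Col11a1 differed by 0.78 (SE 0.40, adjusted p = 0.129), and its second, dimmer probe set gave 2.24. Col3a1 differed by 0.01 with a 95% interval from -0.30 to 0.31, and its sign was negative after cyclic loess (-0.17) and after subtraction of array medians (-0.13), while its second probe set gave 0.47. Col6a1, of the beaded filament, differed by 0.12 (SE 0.08, adjusted p = 0.233).

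Of the 6 type IV chains, 3 rose, 2 fell and 1 did not pass in isolated mice. Their genes lie in head-to-head pairs in the mouse genome, among them Col4a1 beside Col4a2 on chromosome 8 and Col4a5 beside Col4a6 on chromosome X. Col4a5 rose by 0.39 (SE 0.14, adjusted p = 0.0471) and Col4a6 by 0.53 (SE 0.08, adjusted p = 0.000881), whereas Col4a1 fell by 0.33 (SE 0.11, adjusted p = 0.0358) and Col4a2 by 0.53 (SE 0.14, adjusted p = 0.0105). Col4a6 read 9.63, 9.63, 9.64 and 9.65 at 15 weeks and 10.43, 10.09, 10.01 and 10.16 at 20 weeks, and Col4a2 read 10.55, 10.71, 10.72 and 10.67 at 15 weeks and 9.75, 10.09, 10.14 and 10.53 at 20 weeks. The ages did not overlap for either gene. Of the third pair, on chromosome 1, Col4a4 rose by 0.42 (SE 0.06, adjusted p = 0.000718) and Col4a3 differed by -0.18 (SE 0.07, adjusted p = 0.0642). The calls of Col4a1 and Col4a5 depended on single arrays: Col4a1 passed in 2 of 8 fits without 1 array (without isolated replicate 1 or 4 of 20 weeks) and Col4a5 in 3 of 8 (without isolated replicate 1, 2 or 3 of 20 weeks), with an adjusted p of up to 0.0884 and 0.105. With cyclic loess Col4a5 did not pass (0.34, adjusted p = 0.0588), and the second Col4a1 probe set gave -0.12 (adjusted p = 0.556). On the deposited values Col4a1 (-0.08) and Col4a2 (-0.23) did not pass.

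Membrane-bound and anchoring chains of epithelium differed in direction. Col17a1, of the hemidesmosome, rose by 0.46 (SE 0.08, adjusted p = 0.00104) and Col7a1, of the anchoring fibril, by 0.40 (SE 0.07, adjusted p = 0.00184). Col13a1, a transmembrane collagen, fell by 0.75 (SE 0.06, adjusted p = 4.77e-05), from a mean level of 7.85 ± 0.08 to 7.11 ± 0.09 (SD, n = 4 arrays each), with no overlap. Col15a1, which links basement membrane to stroma around vessels, fell by 0.41 (SE 0.13, adjusted p = 0.0269), a call lost without isolated replicates 1, 2 or 4 of 15 weeks (adjusted p up to 0.0699) and on the deposited values (-0.12).

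In grouped mice 13 of 38 members passed the limma test between 15 and 20 weeks, against 38.6% of all genes. Of the members, 9 were higher and 4 lower, where 19.3% of all genes were called higher and 19.3% lower. On the deposited values the split was 13 higher and 2 lower, and without grouped replicate 3 of 20 weeks it was 8 higher and 15 lower (23 in all). With the Gapdh 3' minus 5' signal as a covariate, 5 passed, 3 higher and 2 lower. That signal averaged -0.063 at 15 and -0.014 at 20 weeks in grouped mice. Shares of all genes were not counted under these changed settings, so whether all genes moved alike is not known. Col8a1 rose by 1.44 (2.72-fold, SE 0.27, adjusted p = 0.00378), from 10.41, 9.08, 9.20 and 9.21 to 10.88, 10.96, 11.23 and 10.60, with the standing-apart replicate 1 the highest at 15 weeks and still below every array at 20 weeks. Without that array it rose by 1.75. With every array kept, its 2 other probe sets gave 0.52 and 0.83. Col16a1 rose by 0.88 (SE 0.10, adjusted p = 0.000473), Loxl4 by 0.64 (SE 0.06, adjusted p = 0.000224), Col17a1 by 0.59 (SE 0.12, adjusted p = 0.00525) and P4ha2 by 0.52 (SE 0.07, adjusted p = 0.000902). Col4a5 (0.47, SE 0.10, adjusted p = 0.00609) and Col4a6 (0.38, SE 0.09, adjusted p = 0.0102) rose together here as well, where Col4a1 (-0.12, adjusted p = 0.487) and Col4a2 (-0.33, adjusted p = 0.131) did not pass. Under the Gapdh covariate the calls of Col8a1 (1.22, adjusted p = 0.0869), Col17a1 (0.54, adjusted p = 0.0893), Col4a5 (0.42, adjusted p = 0.105) and Col4a6 (0.31, adjusted p = 0.155) were lost.

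Col13a1 fell by 0.80 (SE 0.08, adjusted p = 0.000267) in grouped mice, from 7.73, 7.95, 7.95 and 7.99 to 7.19, 7.02, 7.25 and 6.96. P4ha3 fell by 0.87 (SE 0.13, adjusted p = 0.00124), with both ages below the lower quartile of the arrays. Col6a3 fell by 0.68 (SE 0.22, adjusted p = 0.0385) and passed in 2 of 8 fits without 1 array (without grouped replicate 4 of 15 weeks or grouped replicate 3 of 20 weeks), with an adjusted p of up to 0.0995. Col5a3 fell by 0.37 (SE 0.11, adjusted p = 0.03), passed in 3 of 8 such fits (without grouped replicate 2 or 4 of 15 weeks or grouped replicate 3 of 20 weeks, adjusted p up to 0.082) and differed by -0.12 on the deposited values. Plod3 (0.20, adjusted p = 0.0213) passed in 5 of 8 fits and Col4a4 (0.24, adjusted p = 0.0466) in 2 of 8; both calls were lost without grouped replicate 2 of either age or grouped replicate 4 of 20 weeks, and that of Col4a4 also without grouped replicate 3 or 4 of 15 weeks or grouped replicate 3 of 20 weeks (adjusted p up to 0.0594 for Plod3 and 0.124 for Col4a4). All 7 fibrillar chains had negative differences (median -0.26), among them Col1a1 with -0.44 (SE 0.32, adjusted p = 0.296) and Col3a1 with -0.25 (SE 0.17, adjusted p = 0.269), which passed without grouped replicate 3 of 20 weeks (-0.40, adjusted p = 0.0421) and turned its sign with the Gapdh 3' minus 5' signal as a covariate (0.07). Col11a1 was negative on the probe set used (-0.15) but positive on its second, dimmer one (0.68). Lox differed by 0.16 (SE 0.18, adjusted p = 0.507), Plod2 by 0.22 (SE 0.13, adjusted p = 0.188) and P4ha1 by 0.08 (SE 0.07, adjusted p = 0.349). A second Lox probe set of like brightness gave -0.18. The second probe set of Plod2 gave 0.31 and that of P4ha1 -0.14. Col1a2 differed by -0.18 (SE 0.18, adjusted p = 0.449). Serpinh1 differed by -0.34 (SE 0.13, adjusted p = 0.0682) and passed without grouped replicate 3 of 20 weeks (-0.47, adjusted p = 0.00433), and so did Col18a1, which differed by -0.22 (SE 0.09, adjusted p = 0.0849), with -0.27 (adjusted p = 0.037) without that array. Col7a1 differed by 0.36 (SE 0.13, adjusted p = 0.0512) and passed without grouped replicate 1 of 15 weeks (0.48, adjusted p = 0.0048). Under the Gapdh covariate Col5a3 (adjusted p = 0.092), Col6a3 (0.3), Plod3 (0.128) and Col4a4 (0.232) did not pass.

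**Figure D4:**
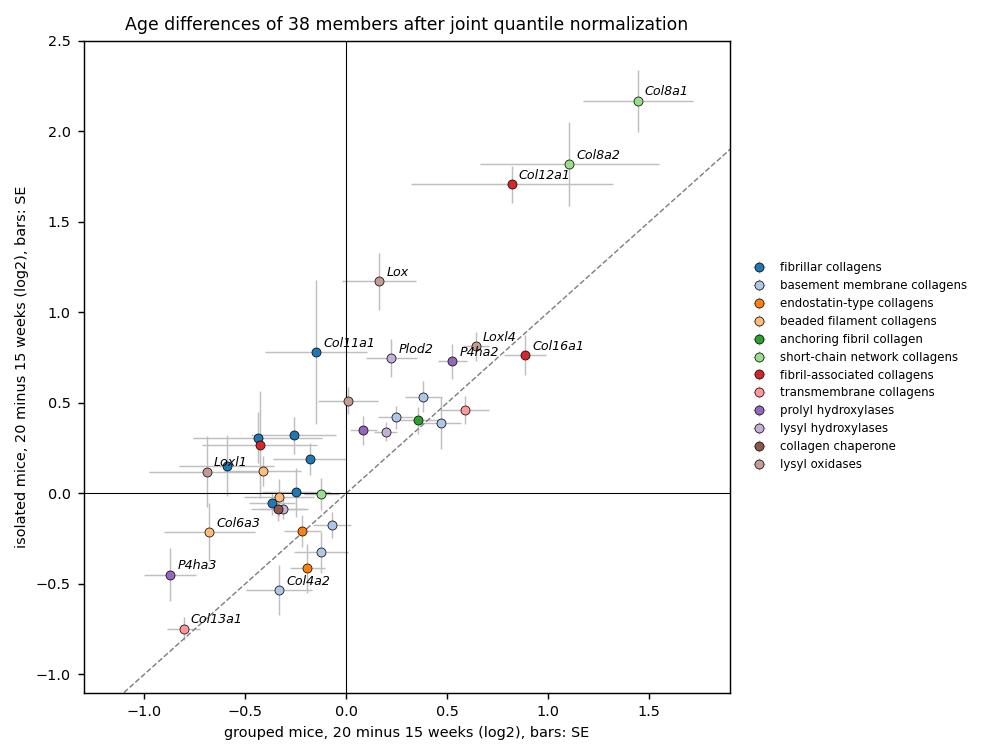
Difference between 20 and 15 weeks (log2, after joint quantile normalization) in grouped mice (x axis) and in isolated mice (y axis) for 38 members, coloured by class, with standard errors as bars and a dashed line of equal difference. Col8a1 lies furthest up (1.44 and 2.17) and Col13a1 furthest down (-0.80 and -0.75); the distance of a point from the dashed line was tested only as the housing by age interaction, which no member passed.

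Cell type markers moved with age as well. All 8 white adipocyte markers fell in isolated mice (median -1.62) and all 8 in grouped mice (median -0.72). Of 9 fibroblast markers, 6 fell in grouped mice (median -0.74) and 0 passed in isolated mice (median -0.24). Of 10 macrophage markers, 5 rose in isolated mice (median 0.40) and 3 fell in grouped mice (median -0.53). Of 8 skeletal muscle markers, 7 fell in isolated mice (median -0.70), whereas 1 rose and 0 fell in grouped mice. Of 8 endothelial markers, 4 fell in isolated mice, and 1 rose and 1 fell in grouped mice. Of 5 proliferation markers, 4 rose in isolated and 5 in grouped mice. Luminal epithelial markers numbered 3 higher and 2 lower of 7 in isolated mice, and 4 higher and 0 lower in grouped mice. For the 6 basal epithelial markers these counts were 3 and 2 in isolated, and 2 and 0 in grouped mice. Smooth muscle and pericyte markers fell in 3 of 7 in isolated and 2 of 7 in grouped mice, and 0 rose. Cartilage markers rose in 2 of 6 and 3 of 6, with 0 lower. In each housing 1 of 2 Schwann cell markers fell. The part of these shifts in the collagen differences was not tested.

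The counts in the lists around the set stand beside 24.7% of all genes called higher and 25.7% lower in isolated mice, and 19.3% and 19.3% in grouped mice. Ccn2, a TGF-beta target, rose by 1.36 (SE 0.06, adjusted p = 4.63e-06) in isolated and by 0.86 (SE 0.17, adjusted p = 0.00446) in grouped mice. Of 9 genes of TGF-beta signalling, 4 rose in each housing and 0 fell. Of 8 fibril organisers, 4 rose in isolated mice, with Thbs2 by 0.88 (SE 0.10, adjusted p = 0.000175), Bgn by 0.79 (SE 0.08, adjusted p = 8.36e-05) and fibronectin, Fn1, by 0.57 (SE 0.08, adjusted p = 0.000379), whereas in grouped mice 0 rose and 1, Fmod, fell (-0.28, SE 0.10, adjusted p = 0.0424). Of 6 proteinases and enhancers, 3 rose in isolated mice, with the enhancer Pcolce by 0.71 (SE 0.06, adjusted p = 5.7e-05), and 1 rose in grouped mice, Adamts3 (0.22, SE 0.06, adjusted p = 0.0197). Of 15 genes of folding and export, 6 rose and 3 fell in isolated mice and 2 rose and 3 fell in grouped mice; P4hb, the shared subunit of the prolyl hydroxylases, rose by 0.49 (SE 0.06, adjusted p = 0.000161) and by 0.30 (SE 0.07, adjusted p = 0.0123). Of 8 collagen receptors, 6 rose and 2 fell in isolated mice and 3 rose and 1 fell in grouped mice, with Itga1, an integrin for type IV collagen, lower by -0.75 (SE 0.17, adjusted p = 0.00601) and -0.51 (SE 0.12, adjusted p = 0.0111). Among 15 other chains, 1 rose and 3 fell in isolated mice and 1 rose and 1 fell in grouped mice; the chain that rose in both was Col9a3, and Col22a1 was among those that fell in both.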

How the data were processed

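RNA of 16 whole thoracic glands, flash frozen, was hybridised to Affymetrix mouse arrays, with 6 micrograms of total RNA each. The deposited values are log2 expression per probe set, which the authors computed by RMA (affy software), per the submitters' processing notes; the version used was not stated there. Of 45101 probe sets, 34958 carried 1 gene symbol, 932 several and 9211 none; a gene took its single-symbol probe set of highest mean level, which left 18194 genes. The platform's symbols were checked against RefSeq (GRCm38.p6), and 0 changed.

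Groups were compared in R 4.3.3 by limma 3.58.1, using moderated two-sided tests (lmFit, then eBayes allowing an intensity trend, Benjamini-Hochberg adjustment over all genes, threshold 0.05). Housing was fitted within each age on 8 arrays of deposited values, and over both ages and as an interaction on 16. Age was fitted on 8 arrays of each housing after quantile normalization of the 16. Alternatives were other normalizations, probe set and expression filters, trend and prior settings, a threshold of 0.1, RNA quality covariates, the replicate block, all 16 arrays in the fit and leaving out each array. The number of arrays limits the precision.

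On simulated arrays with 67, 67 and 66 genes changed by 0.5, 1 and 2 (log2), the 20-week housing fit recovered 47, 60 and 66 of them. Of 189 calls in that fit, 16 were false. Noise was drawn for each gene on its own, so shifts shared by many genes of an array were not simulated. The counts therefore do not give the power of the real comparison, where 2 of all genes passed.

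The members, gene lists and tests were chosen with earlier results of these data known. Named are every member past the threshold, the member of smallest p in each class, and Col1a1, Col1a2, Col3a1, Col4a1, Lox, Plod2, P4ha1 and Serpinh1 in each comparison. In the surrounding lists the rule was up to 4 genes past the threshold or the 1 or 2 of smallest p; only some of these are named, for housing at 20 weeks and for age. Other genes appear where their values fill a count or a gene pair.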

Additional observations from a re-analysis of the deposited data

Results flagged for a closer look

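In each group of 4 arrays, a gene's most extreme array was compared with the others by the gap to its nearest neighbour over the range (Dixon's criterion). Of 152 combinations of member and group, 8 had an array that stood apart, and chance marks about 1 in 20. At 15 weeks, grouped replicate 1 read 10.30 for Col8a1, where the others read 8.95 to 9.14, and 9.49 for Loxl3, where the others read 8.86 to 8.95. Grouped replicate 4 read 10.98 for Plod3, with the others at 10.84 to 10.86. Isolated replicate 1 read 9.37 for Col8a1, with the others at 9.18 to 9.21, and 10.34 for Col4a2, with the others at 10.54 to 10.56. At 20 weeks, grouped replicate 1 read 11.29 for Col16a1, where the other arrays all read 11.15. Isolated replicate 3 read 10.83 for Col16a1, with the others at 11.28 to 11.37. Grouped replicate 4 read 5.37 for P4ha3, with the others at 5.74.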

How the results depend on the processing

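The cause of the changes listed here was not tested, and shares of all genes were not counted under these alternatives. Housing at 15 weeks, where differences were small, turned sign for Col1a1, Col1a2, Col3a1 and Lox with quantile normalization (0.05, 0.04, 0.06 and 0.00) and cyclic loess (0.06, 0.06, 0.09 and 0.01), and for Loxl4 on its most variable probe set (-0.12). The Gapdh covariate turned Col17a1 (-0.07), Col3a1 (0.04), Col4a1 (-0.03), Col4a2 (-0.10) and P4ha1 (0.03), and the actin covariate Col1a1 (0.15), Col1a2 (0.05), Col3a1 (0.02), Col7a1 (0.03), Col8a2 (0.01) and Lox (0.09). At 20 weeks, Col4a1 turned on its most variable probe set (0.09) and actin (0.06). Gapdh turned Col13a1 (0.01) and Col7a1 (-0.04) over both ages, Col14a1 (-0.03) and Col3a1 (-0.19) in the interaction, and Col3a1 with age in grouped mice (0.07). With age, deposited values turned Col18a1 (0.03) and Col4a1 (0.06) in grouped and Serpinh1 (0.08) in isolated mice. Col3a1 in isolated mice turned with deposited values minus the array median (-0.13), loess (-0.17), Gapdh (-0.05) and actin (-0.12). Members passing for housing numbered 1 at 20 weeks with all 16 arrays in the fit, and 1 over both ages with a threshold of 0.1 or the actin covariate. With age in grouped mice, 8 passed among genes above the median level, 20 with a threshold of 0.1, 5 with Gapdh and 20 with all 16 arrays, and the median was 0.068 on deposited values and -0.019 when genes took their most variable probe set. In isolated mice the median was 0.553 on deposited values and 0.153 with actin. Members higher at an unadjusted p under 0.05 over both ages numbered 11 with quantile normalization, 11 with loess, 12 with Gapdh and 16 with actin, against 7; in the interaction 6 with loess and 7 with Gapdh, against 11; and at 15 weeks 1 with Gapdh or all 16 arrays, against 2. With age, calls were lost in grouped mice for Plod3 (adjusted p = 0.0528 on deposited values minus the array median, 0.058 with actin) and Col4a4 (0.0561 with loess, 0.119 with actin, 0.0888 under the block), and in isolated mice for Col15a1 and Col4a1 on deposited values minus the array median (0.0699 and 0.0704). Calls were gained in grouped mice for Plod2 and P4ha1 on deposited values (0.0143 and 0.00487), Col18a1 on its most variable probe set (0.0256), Col7a1 on deposited values (0.00336) and with all 16 arrays (0.0168), Serpinh1 with actin (0.032) and all 16 arrays (0.0223), and in isolated mice for Serpinh1 with loess (0.0229) and Col6a1 on deposited values (0.0107). Leaving out each array gave 0 to 2 members at 20 weeks, 0 to 1 over both ages, 9 to 23 with age in grouped mice and an interaction median of 0.242 to 0.417. Signs turned within these ranges: at 15 weeks Serpinh1 -0.05 to 0.06, Col1a1 -0.15 to 0.25, Col1a2 -0.13 to 0.07, Lox -0.10 to 0.06, Col7a1 -0.15 to 0.09, Col8a2 -0.58 to 0.21, Col3a1 -0.10 to 0.02 and Col17a1 0.00 to 0.16; at 20 weeks Col4a1 -0.17 to 0.07 and Col17a1 -0.08 to 0.02; over both ages Col7a1 -0.05 to 0.07, Col4a1 -0.03 to 0.09, Col12a1 -0.01 to 0.47 and Col3a1 -0.01 to 0.19; in the interaction Col7a1 -0.05 to 0.19; and with age in isolated mice Col3a1 -0.07 to 0.15. With the replicate number as a block, 0 members passed in each housing comparison and the interaction, 17 with age in grouped and 25 in isolated mice. The block gained Col7a1 (adjusted p = 0.0402) and Serpinh1 (0.0134) in grouped and Col1a1 (0.0262) in isolated mice. Whether the numbers pair the arrays was not settled. Of 16 pairs with the same number, 9 correlated above 0.1 (range -0.2 to 0.488). For some arrays the best match in the other group had the same number, and for others it did not.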
